A study of Drosophila melanogaster with 8 samples.

Results

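The genes described here are noncoding genes of Drosophila melanogaster that the gene table lists only by a CR number, the prefix that FlyBase gives to computed RNA genes without a protein product. The table held 15240 rows, 636 of them named CR followed by digits alone. Of these, 122 were listed at 0 RPKM in every library, and 75 averaged 3 RPKM or more across the 8 libraries (RPKM, a read number divided by gene length and library size). These 75 genes were chosen by that mean level over all 4 groups, with earlier results of these data known. No difference between groups entered the rule, but a mean can reach 3 RPKM through the higher groups only. For 8 of the genes some group mean lay below 3 RPKM, so the choice was not free of group differences.

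Total RNA had been taken from whole heads of adult flies, about 90 heads a sample. One line was Canton-S, a common laboratory strain (CantonS below), and the other was Bully, a hyper-aggressive line of Canton-S background. Rearing at either 19C or 25C made 4 groups, CantonS 19C, Bully 19C, CantonS 25C and Bully 25C, each with 2 libraries that the series calls independent biological replicates. All flies were 6 days old and socially naive, and neither their sex nor any further treatment is given in the labels. A single Bully line was used, so a line difference is a difference between these lines.

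Long noncoding RNAs are transcripts without a recognised protein product, and many are made from the strand opposite to a protein-coding gene (antisense RNAs). Some are known to act on chromatin or on neighbouring genes, as roX1 does in dosage compensation, while most have no described function. An antisense RNA shares bases with its partner gene, so a library that does not record strand cannot tell their reads apart. Strand use in library making and in counting is not given in the sources used here.

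Effective library sizes, recovered from the steps between RPKM values, lay between 47.6 M reads in CantonS 25C library a and 117.8 M in CantonS 19C library b (M, mega; a and b are names only). Across the 8480 genes averaging 1 RPKM or more, which are not independent replicates, log2 levels of replicate libraries correlated at 0.976 in CantonS 19C and at 0.983 to 0.993 in the other groups. The label of whole head was checked on photoreceptor genes, of which all 11 listed were detected, with ninaE (the main rhodopsin) reaching 8899.9 RPKM. Summed fat body markers (6 of 7 matched) were 631 to 640 RPKM in Bully 19C, against 152 to 297 in the other groups. One gene of that list, Lsp2, reached 397.7 RPKM in a Bully 19C library, so the sum rests largely on 1 gene. Summed photoreceptor markers were 15197 to 15584 RPKM in Bully 25C, against 10139 to 13420 elsewhere, and summed hemocyte markers (5 of 7 matched) were 35.5 to 38.8 in CantonS 19C, against 54.0 to 77.7 elsewhere. Summed glia markers (6 of 6 matched) were 334 to 373 RPKM in CantonS 19C and 391 to 441 in the other groups, and ovary markers (11 of 11 matched) 0.685 to 0.768 and 0.383 to 0.602. Testis markers (10 of 10 matched) summed to 3.81 to 4.37 RPKM in Bully 19C and to 0.249 to 0.945 elsewhere. No listed marker of these types was at 0 in every library. These levels move with the groups compared below, and their part in any result was not tested. In bulk heads, fewer cells of a type and less RNA per cell cannot be told apart.

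In a current annotation (BDGP6, a later build than the authors'), all 75 genes were found. It lists 55 of them (73.3%) as antisense RNA, 17 as long noncoding RNA and 1, CR32207, as a hairpin RNA, a class known as a source of small interfering RNAs. The last pair now carry protein-coding annotations, CR43051 as CG43051 and CR43497 as CG32700. The genes were spread over the arms, with 22 on 2L, 12 on 2R, 9 on 3L, 19 on 3R, 8 on X and 5 on chromosome 4. Chromosome 4 held 6.67% of the CR genes, against 0.984% of the tested genes with a known position, and X held 10.7% against 16.7%. Their annotated exon length ran from 214 to 5485 bases, with a median of 1133.

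Levels covered a wide range. The mean over 8 libraries had a median of 7.63 RPKM, 8 genes reached 100 RPKM, 16 lay between 10 and 100, and 51 lay below 10, of which 23 were below 5. The 10 highest means belonged to CR34335, CR40469, CR42491, CR44095, CR43900, CR31144, CR42862, CR44021, CR31451 (now named mimi) and CR43875. Since RPKM is scaled to gene length, these levels can be set beside each other as levels of rows, although the authors' gene lengths are not listed in the table. Several of these 10 share exon bases with another gene of high level, as CR44095 does with Cys (mean 422 RPKM) and CR31144 with RpL3 (185). Reads on such bases cannot be assigned to 1 gene here.

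CR34335 was highest, with 1282 and 2010.1 RPKM at 19C and 1460.3 and 1459 at 25C in the CantonS libraries, and 1979 and 1536 at 19C and 1786 and 2645 at 25C in those of Bully. CantonS 25C lay below both Bully groups, and CantonS 19C overlapped all others. It is an X-linked long noncoding RNA with 361 exon bases. CR40469, another short X-linked RNA of 214 bases with no overlapping gene, had 301 and 646 RPKM at 19C and 422 and 283 at 25C in the CantonS libraries, and 505 and 364 at 19C and 449 and 726 at 25C in those of Bully. All pairs of groups overlapped except CantonS 25C and Bully 25C. For CR42491, which shares 50.5% of its exon bases with RpL22 (a ribosomal protein gene) on the same strand, levels were 550.3 and 724 RPKM at 19C and 375 and 449 at 25C in the CantonS libraries, and 425 and 445 at 19C and 405 and 236 at 25C in those of Bully. CantonS 19C was above the other groups, and CantonS 25C overlapped both Bully groups. Its ratio to RpL22 varied by no more than 1.14 times between libraries.

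The next levels were 263 RPKM for CR44095, 259 for CR43900, 163 for CR31144, 109 for both CR42862 and CR44021, 65.3 for CR31451 and 59.1 for CR43875, each a mean over 8 libraries. CR31144 shares 73.7% of its exon bases with the opposite strand of RpL3, another ribosomal protein gene. CR44021 lies opposite to Pp1alpha-96A, a catalytic subunit of protein phosphatase 1, and CR43875 opposite to alphaSnap, an adaptor of membrane fusion. Of these 10, only CR43900 and CR44095 changed in any comparison below. CR43875 varied little, by 1.32 times, from 49.2 RPKM in CantonS 19C library a to 65.1 in CantonS 19C library b, with Bully 19C, CantonS 25C and Bully 25C between them.

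**Figure D1:**
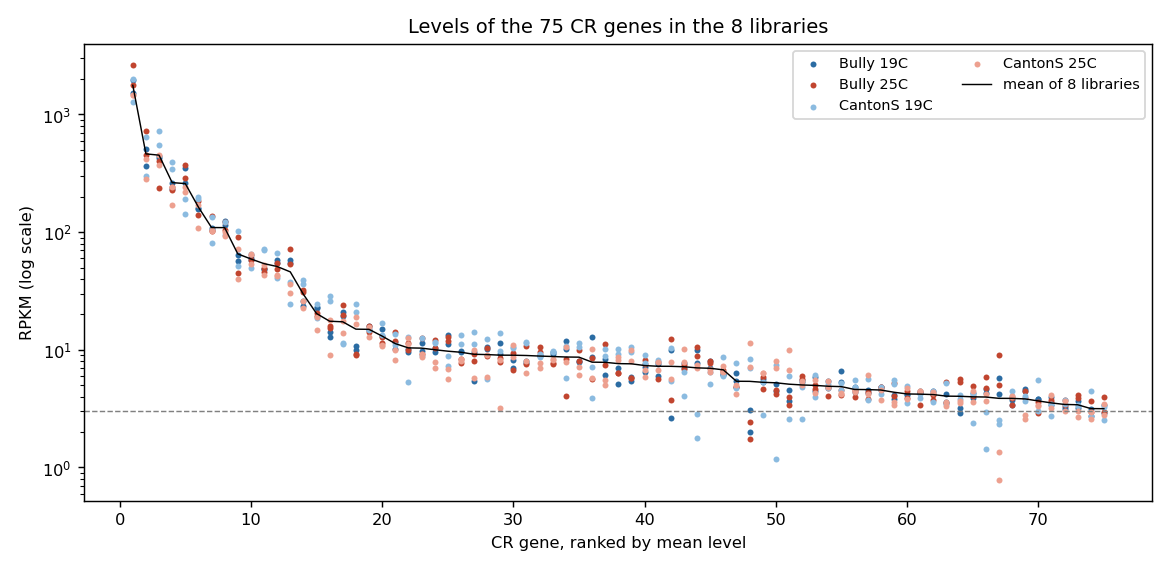
RPKM (log scale) of each of the 75 CR genes in the 8 libraries, ordered by mean level from left to right, with points coloured by group, a black line for the mean of 8 libraries and a dashed line at 3 RPKM. The means fall from 1769.7 to 3.16 RPKM, and most genes lie below 10 RPKM.

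The highest library was 1.24 to 11.4 times the lowest, with a median over the 75 genes of 1.82 times. It was below 1.5 times for 15 genes, below 2 times for 46 and at least 3 times for 11. Part of this spread lay within groups. CR44201 had 9.92 and 2.63 RPKM in Bully 19C and 3.75 and 12.4 in Bully 25C, while CR44221 had 7.37 and 1.18 RPKM in CantonS 19C. In CantonS 19C, 5 genes differed at least 2-fold between the libraries, against 1 in each other group. The median absolute log2 difference between replicates over the CR genes was 0.13 for the pair of Bully 19C, 0.18 for Bully 25C, 0.21 for CantonS 25C and 0.31 for CantonS 19C.

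Just inside the limit of 3 RPKM lay CR44024 at 3.16, CR44097 at 3.17 and CR44182 at 3.41, and just outside lay CR44228 at 2.99, CR30267 at 2.85 and CR43868 at 2.84. All 4 group means reached 3 RPKM for 67 of the 75 genes, and all 8 libraries did for 58. The 8 genes with a group mean below 3 RPKM were CR43469, CR43477, CR44115, CR44168, CR43787, CR44182, CR44097 and CR44024. A gene that enters the list through a high group has to differ between groups, so the number of these 8 among the called genes is given with each count. For 3 of them, CR43469, CR43477 and CR44168, the highest group mean was at least 4 times the lowest. Whole reads were recovered for 51 genes and ran from 18 reads (CR44168 in CantonS 25C library a) to 63655 reads (CR42491).

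Most of these genes overlapped others. Some annotated gene overlapped 70 of the 75 CR genes, and 64 shared exon bases with a gene of the table, 58 of them with a gene on the opposite strand and 6 on the same strand. The shared part covered a median of 73.7% of the CR gene's exon bases and all of them in 6 genes. The level of the CR gene was divided by that of its partner in each of the 8 libraries. The highest ratio was a median of 1.33 times the lowest, and at least 2 times the lowest in 13 pairs. Levels of the 75 CR genes themselves varied by a median of 1.82 times. Some CR genes kept a steadier ratio to a row that does not overlap them. No median for unrelated pairs is given, so 1.33 times is not read as particular to overlap. The ratio was steadier where more of the gene was shared, with a median of 1.18 times in the 26 genes with at least 80% overlap, 1.21 times in 20 genes with 50 to 80%, and 1.88 times in 18 genes with less.

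In 11 genes the ratio to another row was constant within 5% across all libraries, and in each the other row was an opposite-strand gene that shares exon bases. These were CR44095 with Cys (a cystatin-like protease inhibitor), CR44031 with CG11077 (now Mpv17, a mitochondrial inner membrane protein), CR43767 with Tango14, CR44179 with CG5112, CR44181 with CG7300 and CR43809 with CG9257. The others were CR43469 with CG3790 (now Balat, a beta-alanine transporter), CR43477 with CG12256, CR43463 with Pgant35A (a mucin-type O-glycosyltransferase), CR44134 with CG9804 (now Lipt2, a lipoyl transferase) and CR43787 with Cyp9c1 (a cytochrome P450). CR44095 and Cys kept a ratio of 0.625 within 1.001 times while CR44095 itself ran from 169 to 394 RPKM and Cys from 270.4 to 631. CR43469 and CG3790 stayed within 1.002 times while CR43469 varied by 5.99 times. None of the 11 had less than 56.6% of its exon bases shared, and 10 of them had at least 80%.

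Where whole reads were recovered on both rows, the rows of such a pair held almost the same number. In Bully 19C library a, CR43787 and Cyp9c1 each had 1007 reads, CR43469 and CG3790 had 1953 and 1949, CR44179 and CG5112 had 2519 and 2507, and CR44134 and CG9804 had 424 and 428. CR43809 had 1501 reads against 1528 for CG9257, and CR43477 had 200 against 202 for CG12256. With strand not given, a difference in one of these 11 genes cannot be told apart from a difference in its partner. Reads on shared bases of the other pairs cannot be assigned to 1 gene either. Such bases make up 100% of the exon bases of CR44045 (with Axn) and 94.2% of those of CR44107 (with CG5835). The nearest constant ratio between a CR gene and a row that does not overlap it was 1.06 times, for CR43685 with CG1882. A further 4 genes kept the ratio to their main overlapping partner within 10%, among them CR43730 with JhI-26 (1.076 times) and CR43944 with fbl (1.097 times). CR44054 likewise stayed within 10% of CG32667 (now ssp7), which shares a smaller part of it.

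**Figure D2:**
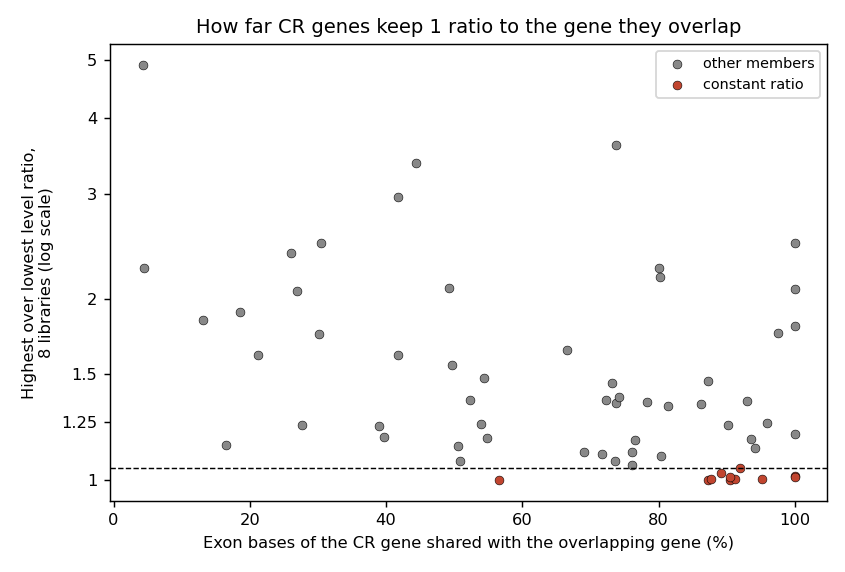
For the 64 CR genes that share exon bases with a gene of the table, the percentage of exon bases shared (horizontal axis) and the highest over the lowest ratio of both levels in the 8 libraries (vertical, log scale), with the 11 constant ratios in red and the limit of 5% dashed. All red points but 1, CR44095 at 56.6%, lie above 80% overlap, and the lowest point below 50% overlap is at 1.15 times.

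The first question was how the lines differ. Differences are given as Bully minus CantonS on the scale of log2(RPKM + 0.5), with the standard error (SE), from a limma model over all 8480 genes and 4 groups, and a gene is said to be called, higher or lower where the Benjamini-Hochberg adjusted p over all tested genes is below 0.05. At 25C, 6 of the 75 CR genes were called, 4 higher and 2 lower in Bully, where 3.03% of all tested genes were called (1.86% higher, 1.17% lower). At 19C, 12 were called, 5 higher and 7 lower, against 11.5% of all genes (3.44% higher, 8.07% lower). Averaged over the temperatures, 11 were called, 7 higher and 4 lower, against 8.79% (4.38% higher, 4.41% lower). The CR genes' shares were 8.0%, 16.0% and 14.7%. Without the 11 constant-ratio genes the counts were 3, 9 and 7, and 3, 3 and 4 of the called genes in turn were among the 8 with a group mean below 3 RPKM. The median difference over the 75 genes was 0.15 at 25C and -0.01 at 19C, beside 0.05 and -0.05 over all genes tested. The lines did not overlap (4 libraries against 4) in 13 CR genes (17.3%), against 13.4% of all genes. With 2 libraries against 2, they did not overlap in 54.7% of CR genes at 25C and 50.7% at 19C. Of all genes tested, 51.7% and 60.0% did not overlap, so a lack of overlap at 1 temperature is common.

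These counts moved with single libraries, and the shares of all genes called without those libraries are not given. The 25C count was 2 without Bully 25C library a, 1 without b, 3 without CantonS 25C library a and 11 without either CantonS 19C library. The 19C count fell to 2 without Bully 19C library a, 3 without b, and 5 without CantonS 19C library b or either Bully 25C library. The averaged count was 7 without Bully 19C library a or Bully 25C library a. Of 16 genes called in any line comparison, CR31781 and CR43477 were called at both temperatures.

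CR31781, a long noncoding RNA of 2679 exon bases with no overlapping gene, had 20.8 and 24.6 RPKM at 19C and 16.7 and 19.0 at 25C in the CantonS libraries, and 10.8 and 9.87 at 19C and 9.0 and 9.16 at 25C in those of Bully. Every Bully library was below every CantonS library at both temperatures. The difference was -1.01 averaged over temperatures (SE 0.10, limma adjusted p = 4.37e-04), -1.09 at 19C (adjusted p = 0.00267) and -0.93 at 25C (adjusted p = 0.00929). The averaged and the 19C call held without any 1 library, and the 25C call was lost without either Bully 25C library (adjusted p = 0.0816 and 0.0721). The nearest gene averaging 1 RPKM or more, CG31743, differed by 0.07 (SE 0.11, adjusted p = 0.788).

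CR43242, also without an overlapping gene, had 4.10 and 3.81 RPKM at 19C and 3.51 and 3.70 at 25C in the CantonS libraries, and 3.19 and 2.92 at 19C and 5.35 and 5.64 at 25C in those of Bully. Bully was above CantonS at 25C and below it at 19C, with no overlap in either case. The call at 25C (0.55, SE 0.11, limma adjusted p = 0.0412) was lost without any single library of 6 (all but those of CantonS 19C), with an adjusted p of up to 0.256. It was also lost under 6 of 10 other settings: a filter of 3 RPKM or none, the length trend removed, median-of-ratios rescaling, quantile normalization and a fit of the 25C groups alone (adjusted p up to 0.159). At 19C the difference was -0.33 (adjusted p = 0.0952).

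CR43900 is a long noncoding RNA that shares 27.0% of its bases with Cam (calmodulin, the main calcium sensor of the cell) on the same strand. It had 144 and 189.7 RPKM at 19C and 242 and 219 at 25C in the CantonS libraries, and 353 and 261 at 19C and 288 and 373 at 25C in those of Bully. Each Bully library was above every CantonS library. It was called at 19C (0.87, SE 0.22, limma adjusted p = 0.0394) and on average (0.69, SE 0.16, adjusted p = 0.0287), and not at 25C (0.51, adjusted p = 0.291). The 19C call was lost without any 1 library outside CantonS 25C (adjusted p up to 0.259), and the averaged call without any 1 library other than Bully 19C library b or CantonS 19C library b (adjusted p up to 0.121). With no filter on low values both calls were lost (adjusted p = 0.0780 and 0.0635), and the 19C call also in a fit of the 19C groups alone (adjusted p = 0.0790). Cam itself differed by 0.31 on average (SE 0.13, adjusted p = 0.191).

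Among the antisense genes without a constant ratio, CR44168 showed the widest range. It had 2.36 and 2.54 RPKM at 19C and 0.782 and 1.35 at 25C in the CantonS libraries, and 4.20 and 5.72 at 19C and 5.04 and 8.95 at 25C in those of Bully. Both Bully groups lay above both CantonS groups without overlap. The difference was 2.23 at 25C (SE 0.27, limma adjusted p = 0.00411) and 1.55 on average (SE 0.19, adjusted p = 0.0017), calls that held without any 1 library, while 0.87 at 19C was not called (adjusted p = 0.0709). Its partner CG34423, with which it shares 72.3% of its bases, differed by 2.33 at 25C (SE 0.28, adjusted p = 0.00428) and by 1.56 on average (SE 0.20, adjusted p = 0.00223). The ratio of the pair varied by 1.36 times.

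CR44045 lies wholly opposite to Axn (Axin, a scaffold of the complex that degrades beta-catenin in Wnt signalling). The CantonS libraries held it at 9.54 and 10.5 RPKM at 19C and 9.96 and 8.02 at 25C, those of Bully at 5.86 and 5.43 at 19C and 5.74 in each at 25C. All Bully libraries were below all CantonS libraries. It was lower on average (-0.69, SE 0.10, limma adjusted p = 0.00323). At 19C the difference was -0.78 (SE 0.14, adjusted p = 0.0120), while at 25C it missed the threshold (-0.60, adjusted p = 0.0576). Axn had a difference of -0.03 on average (SE 0.08, adjusted p = 0.868), and the ratio of the pair varied by 2.08 times. With strand not given, reads on the shared bases cannot be assigned to 1 gene of the pair. The averaged call held without any 1 library, the 19C call was lost without either Bully 19C library (adjusted p = 0.0814 and 0.119), and both were lost when a trend with gene length was removed (adjusted p = 0.0622 and 0.541).

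CR44114, opposite to l(2)s5379 (now sau, the fly GOLPH3 protein of the Golgi), had 11.5 and 11.3 RPKM at 19C and 17.6 and 13.8 at 25C in the CantonS libraries, and 20.9 and 19.3 at 19C and 19.8 and 24.2 at 25C in those of Bully. The Bully libraries lay above those of CantonS at both temperatures. The difference was 0.79 at 19C (SE 0.16, limma adjusted p = 0.0187) and 0.63 on average (SE 0.11, adjusted p = 0.00975), against 0.28 on average for l(2)s5379 (SE 0.09, adjusted p = 0.0981). The 19C call was lost without CantonS 19C library b or either Bully 19C library (adjusted p up to 0.137), and the averaged call without Bully 19C library a (adjusted p = 0.0515).

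CR44108, a 223-base RNA opposite to CG3011 (now Shmt, serine hydroxymethyltransferase of one-carbon metabolism), had 24.5 and 37.7 RPKM at 19C and 30.6 and 36.5 at 25C in the CantonS libraries, and 58.2 and 54.8 at 19C and 72.0 and 53.3 at 25C in those of Bully. Every Bully library exceeded every CantonS library. The difference was 0.88 on average (SE 0.16, limma adjusted p = 0.0114), 0.88 at 19C (adjusted p = 0.0420) and 0.88 at 25C (adjusted p = 0.0896). CG3011 differed by 0.09 on average (SE 0.16, adjusted p = 0.807). The averaged call was lost without Bully 25C library a (adjusted p = 0.0531), and the 19C call without any Bully library or CantonS 19C library a (adjusted p up to 0.195), with no filter or in a fit of the 19C groups alone (adjusted p up to 0.0782).

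CR43730 lies opposite to JhI-26, a gene first described as inducible by juvenile hormone. Its levels were 9.25 and 10.1 RPKM at 19C and 8.61 and 8.13 at 25C in the CantonS libraries, and 5.10 and 7.01 at 19C and 6.39 and 6.41 at 25C in those of Bully, so that the Bully libraries lay below those of CantonS at each temperature. It was lower at 19C (-0.65, SE 0.15, limma adjusted p = 0.0309) and on average (-0.51, SE 0.11, adjusted p = 0.0233), and JhI-26 was too, by -0.61 at 19C (adjusted p = 0.0337) and -0.44 on average (adjusted p = 0.0341). The 19C call was lost without any Bully library or CantonS 19C library b (adjusted p up to 0.244) and under 4 of 10 other settings (length trend removed, no filter, the 19C groups alone, quantile normalization; up to 0.0890), and the averaged call without Bully 19C library a or any 1 of the 25C libraries (adjusted p up to 0.0994).

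The remaining antisense genes called at 19C were CR44115, CR44054 and CR44107. CR44115 lies opposite to gho (now Sec24CD, a cargo subunit of the COPII vesicle coat) and had 2.96 and 1.43 RPKM at 19C and 3.64 and 4.21 at 25C in the CantonS libraries, and 4.25 and 4.65 at 19C and 4.73 and 5.88 at 25C in those of Bully. Its 19C difference was 0.94 (SE 0.25, limma adjusted p = 0.0437), against 0.33 for gho (adjusted p = 0.0850). That call was lost without any 1 library other than CantonS 19C library a (adjusted p up to 0.217) and under median-of-ratios, quantile, no filter or the 19C groups alone (up to 0.108), and the CantonS 19C libraries themselves were 2.96 and 1.43 RPKM.

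CR44054 had 25.8 and 28.8 RPKM at 19C and 9.06 and 17.9 at 25C in the CantonS libraries, and 12.8 and 14.2 at 19C and 15.4 and 16.0 at 25C in those of Bully. CantonS 19C stood above the other 3 groups. The 19C difference was -0.99 (SE 0.26, limma adjusted p = 0.0438), beside -1.10 for CG32667 (adjusted p = 0.0464), which shares 19.8% of its bases, and -0.04 for CG15199 (adjusted p = 0.911), which shares 41.7%. The call was lost without any 1 of the 19C libraries or of the Bully 25C libraries (adjusted p up to 0.202), and with the length trend removed, no filter, median-of-ratios rescaling or quantile normalization (up to 0.0860).

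CR44107, opposite to CG5835, had the same kind of pattern, with 70.7 and 72.6 RPKM at 19C and 42.8 and 52.9 at 25C in the CantonS libraries, and 48.8 and 48.5 at 19C and 45.9 and 49.7 at 25C in those of Bully. CantonS 19C was above the other groups, which overlapped. Its 19C difference of -0.55 (SE 0.15, limma adjusted p = 0.0438) was lost without any Bully library or CantonS 19C library b (adjusted p up to 0.251), and after removal of a trend with gene length it was 0.029. Median-of-ratios rescaling, quantile normalization and a fit of the 19C groups alone ended the call too. CG5835 had -0.42 at 19C (adjusted p = 0.0907).

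Of the constant-ratio genes, CR43477 had the largest line difference. Levels were 6.97 and 8.29 RPKM at 19C and 7.12 and 11.5 at 25C in the CantonS libraries, and 2.01 and 3.10 at 19C and 2.41 and 1.74 at 25C in those of Bully. Each Bully library was below each CantonS library. The difference was -1.67 on average (SE 0.18, limma adjusted p = 8.37e-04). It was -1.90 at 25C (adjusted p = 0.00618) and -1.43 at 19C (adjusted p = 0.0124), both with an SE of 0.25, beside -1.64 on average for CG12256 (adjusted p = 0.00107). The averaged call held without any 1 library, the 25C call was lost without Bully 25C library b (adjusted p = 0.0637), and the 19C call without Bully 19C library a or CantonS 19C library b (adjusted p = 0.0909 and 0.0585).

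CR43469 was low in 1 group. It had 2.86 and 1.78 RPKM at 19C and 7.36 and 7.03 at 25C in the CantonS libraries, and 7.76 and 9.95 at 19C and 10.7 and 8.78 at 25C in those of Bully. CantonS 19C was below the other 3 groups, and Bully was above CantonS at both temperatures. The difference was 1.75 at 19C (SE 0.20, limma adjusted p = 0.00198), 1.08 on average (SE 0.14, adjusted p = 0.0026) and 0.40 at 25C (adjusted p = 0.362). Its partner CG3790 differed by 1.77 at 19C (adjusted p = 0.00199). The 19C and averaged calls held without any 1 library.

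CR44179, opposite to CG5112, had 7.29 and 8.94 RPKM at 19C and 5.62 and 6.85 at 25C in the CantonS libraries, and 11.1 and 13.3 at 19C and 12.8 and 11.9 at 25C in those of Bully. Bully lay above CantonS at each temperature. The difference was 0.94 at 25C (SE 0.16, limma adjusted p = 0.0173) and 0.75 on average (SE 0.11, adjusted p = 0.00443), and 0.56 at 19C (adjusted p = 0.0534). CG5112 had the same values to 2 decimals at 25C and on average. Leaving out any 1 library kept the averaged call, whereas the 25C call was lost without either Bully 25C library or CantonS 25C library a (adjusted p up to 0.130).

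CR43787, opposite to Cyp9c1, had 3.66 and 4.05 RPKM at 19C and 2.56 and 2.79 at 25C in the CantonS libraries, and 4.49 and 4.67 at 19C and 4.44 and 3.93 at 25C in those of Bully. It was called at 25C (0.56, SE 0.12, limma adjusted p = 0.0458) and on average (0.39, SE 0.08, adjusted p = 0.0242), and Cyp9c1 was called in both too. The 25C call was lost without any 1 library outside CantonS 19C (adjusted p up to 0.249) and under 5 of 10 other settings (no trend in eBayes, a filter of 3 RPKM or none, median-of-ratios, the 25C groups alone; up to 0.0821), and the averaged call without either Bully 19C library, Bully 25C library a or CantonS 25C library a (adjusted p up to 0.132).

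CR44031, opposite to CG11077, had 39.6 and 36.1 RPKM at 19C and 22.6 and 25.9 at 25C in the CantonS libraries, and 23.6 and 26.1 at 19C and 31.1 and 32.0 at 25C in those of Bully. The Bully libraries lay below those of CantonS at 19C and above them at 25C. The 19C difference was called (-0.60, SE 0.13, limma adjusted p = 0.0267) and the 25C difference was not (0.37, adjusted p = 0.201). Without any 1 of the Bully libraries the 19C call was lost (adjusted p up to 0.215), as it was with the length trend removed, quantile normalization or the 19C groups alone (up to 0.444).

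**Figure D3:**
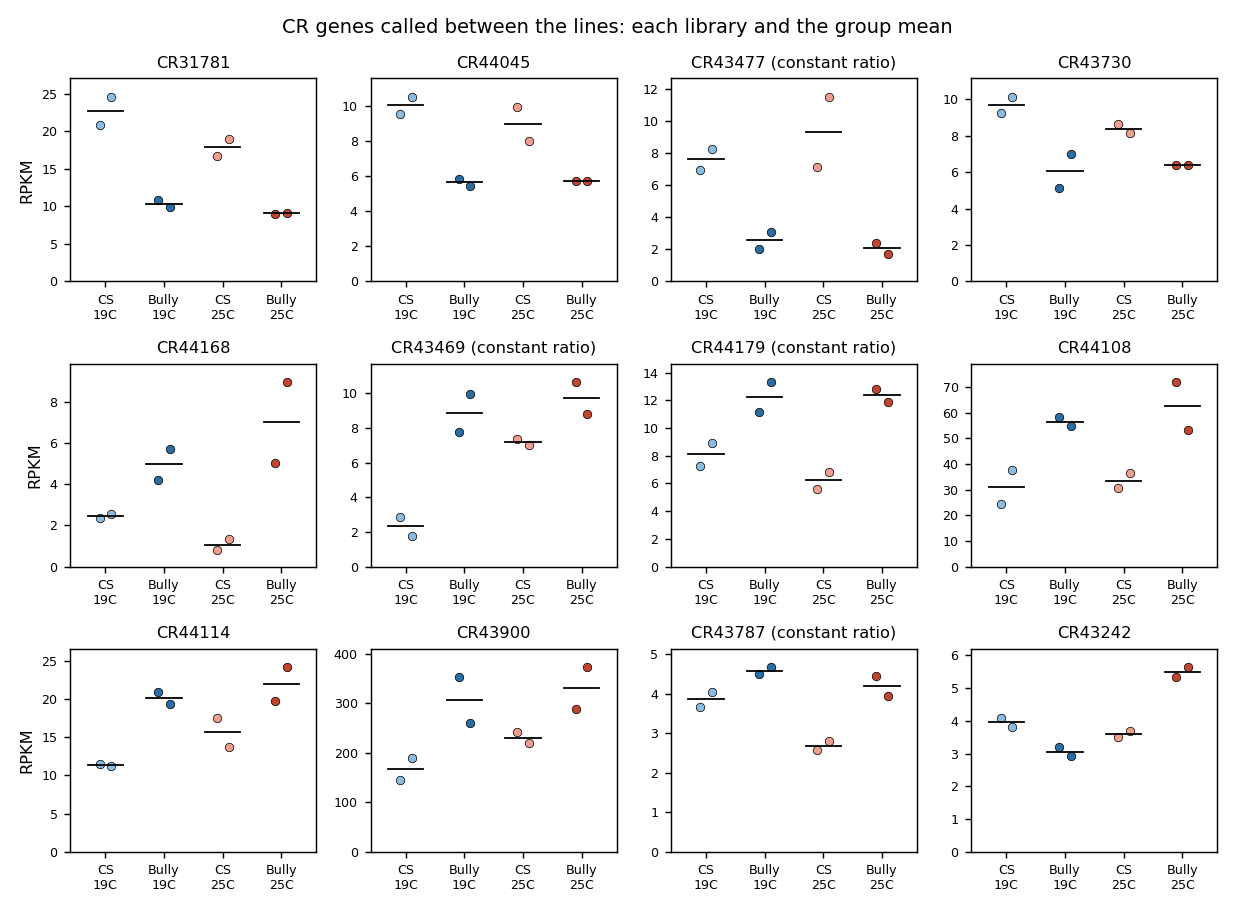
RPKM in each library (points) and group mean (bars) for the 12 CR genes called between the lines at 25C or on average, with CantonS (CS) and Bully at 19C and 25C. The Bully points of CR31781, CR44045, CR43477 and CR43730 lie below those of CantonS at both temperatures, those of CR43242 lie below at 19C and above at 25C, and those of the rest lie above at both.

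Most called CR genes had a partner with a test of its own, taken here as the gene that shares most exon bases. At 25C, 4 of the 6 called genes had one, and all 4 partners were called in the same direction. Without the constant-ratio pairs, whose rows move together and so share their calls by construction, it was 1 of 1. At 19C, 4 of 11 partners were called in the same direction, and 1 of 8 once constant-ratio pairs were set aside. CR44054 counts there with CG15199, while CG32667, which shares less of it, was called in the same direction. Averaged over temperatures it was 6 of 10, and 2 of 6 without the constant ratios. CR44045, CR44114, CR44108 and CR43900 were the averaged calls whose partners were not called. A call on one gene and none on its partner does not show that they differ, and that difference was not tested.

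**Figure D4:**
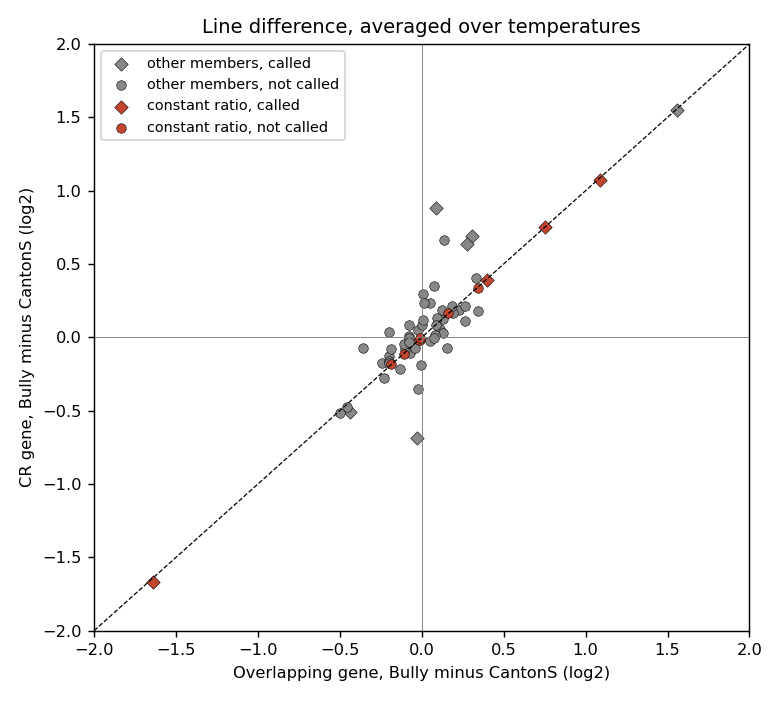
Line difference averaged over temperatures (Bully minus CantonS, log2) of each overlapping gene (horizontal) and of its CR gene (vertical), with diamonds for CR genes called, red for constant ratios and a dashed line of equal differences. The red points and CR44168 lie on or near the line, while CR44108 (0.88 against 0.09), CR44045 (-0.69 against -0.03), CR44114 and CR43900 lie away from it.

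The second question was what rearing temperature does. In CantonS, 7 of the 75 CR genes were called between 25C and 19C, 1 higher and 6 lower at 25C, where 6.42% of all tested genes were called (1.06% higher, 5.35% lower). The median difference over the 75 genes (25C minus 19C) was -0.16, beside -0.11 over all genes. The temperatures did not overlap in 50.7% of CR genes in CantonS and 38.7% in Bully. Of all genes tested, 55.5% and 41.7% did not overlap. Constant-ratio genes made up 4 of the 7, and 1, CR43469, had a group mean below 3 RPKM. The CantonS 19C libraries enter both this comparison and that of the lines at 19C, so these are not independent. The calls did not hold: 0 remained without any 1 library of Bully, without CantonS 19C library b or without CantonS 25C library a, 10 were made without CantonS 25C library b and 25 without CantonS 19C library a. After median-of-ratios rescaling, which moves the median of all genes by 0.11 (log2), none was called. The shares of all genes called in these other fits are not given, so their counts are not read as particular to CR genes.

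The gene that was higher at 25C was CR43469 (1.48, SE 0.20, limma adjusted p = 0.034), whose levels are given above, and its partner CG3790 moved by 1.5 (adjusted p = 0.034). The 6 lower genes were CR44054 (-1.07), CR44095 (-0.87), CR43809 (-0.68), CR44031 (-0.63), CR44065 (-0.59) and CR44133 (-0.55), with adjusted p between 0.0429 and 0.0492. In CantonS, CR44095 had 345 and 394 RPKM at 19C and 169 and 240.0 at 25C, while Bully had 231 and 260.5 at 19C and 243 and 226 at 25C. CantonS 19C was above the other groups. CR44133, which shares 81.4% of its bases with srp (serpent, a GATA factor of fat body and blood cells) on the same strand, fell from 13.5 and 11.1 RPKM at 19C to 8.32 and 8.11 at 25C in CantonS, and stood at 9.5 and 9.68 against 8.31 and 7.71 in Bully. The 25C libraries lay below the 19C libraries in both lines, and srp differed by -0.23 in CantonS (adjusted p = 0.210). CantonS levels of CR43809 were 11.4 and 10.6 RPKM at 19C against 6.14 and 7.19 at 25C, and those of CR44065 were 11.3 and 11.5 against 7.02 and 7.85, in each case without overlap.

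In Bully no CR gene was called between the temperatures by limma, where 0.0236% of all tested genes were called. An unadjusted p below 0.05 was found for 5 CR genes (6.67%), against 3.21% of all genes. The 3 smallest p belonged to CR43242 (0.75, SE 0.11, adjusted p = 0.260), CR43417 (-0.41, SE 0.14, adjusted p = 1.00) and CR43944 (-0.30, SE 0.11, adjusted p = 1.00). CR43242 had 3.19 and 2.92 RPKM at 19C and 5.35 and 5.64 at 25C, without overlap. Averaged over the lines, limma called 0 CR genes (0.0825% of all genes called). Here 18 CR genes (24%) had an unadjusted p below 0.05, against 11.9% of all genes. The smallest limma adjusted p was 0.143 for CR43469 (0.80, SE 0.14), then 0.280 for CR44133 (-0.40) and 0.281 for CR43242 (0.32). Without CantonS 19C library a, 7 were called.

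Whether the line difference itself changed with temperature was tested as an interaction, the 25C line difference minus the 19C one. Limma called 0 CR genes and 0% of all genes, while 18 CR genes (24%, against 23.8% of all genes) had an unadjusted p below 0.05. The 3 smallest p belonged to CR43242 (0.87, SE 0.16), CR44031 (0.97, SE 0.19) and CR43469 (-1.35, SE 0.29), each with an adjusted p of 0.0921. The count was 12 without CantonS 19C library a and 5 without CantonS 25C library b. The effect sizes at the 2 temperatures are therefore not shown to differ for any of the genes above.

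**Figure D5:**
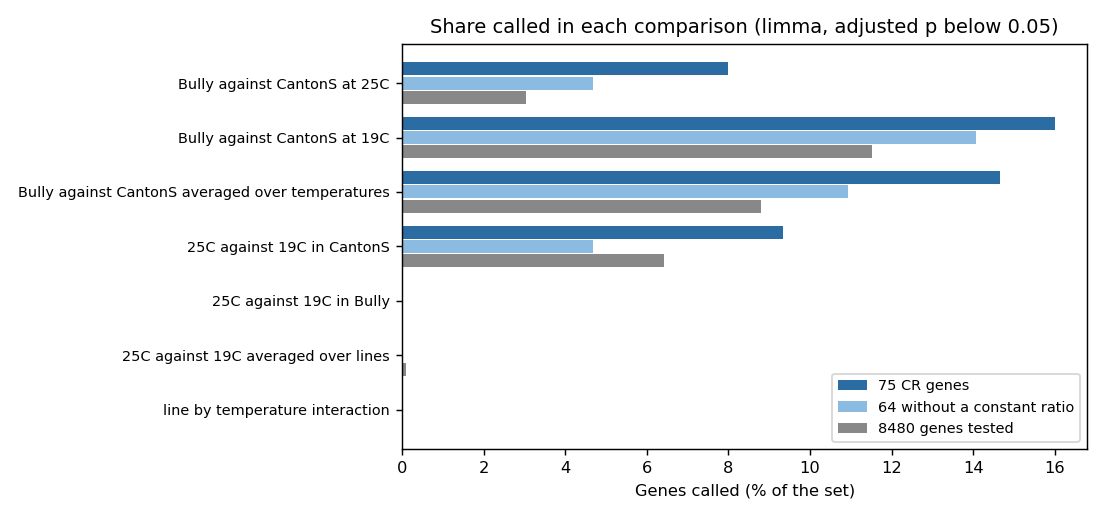
Percentage of genes called by limma in each of the 7 comparisons, for the 75 CR genes, the 64 without a constant ratio and all 8480 genes tested. The CR bars are longer than the bar of all genes in the 3 line comparisons and in CantonS temperature, where the bar without constant ratios is shorter than that of all genes.

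For comparison, 23 noncoding RNAs with names of their own had been listed, such as roX1, Hsromega and the snoRNA host genes (Uhg). Of these, 21 were found and 13 passed the filter of 1 RPKM. In Bully against CantonS, 1 of the 13 was higher at 25C (1.86% of all tested genes) and 3 were lower at 19C (8.07%). The one that was higher at 25C was pncr016:2R (1.66, SE 0.23, limma adjusted p = 0.00797), and those lower at 19C were Uhg3 (-1.32, adjusted p = 0.0252), Hsromega (-0.93, adjusted p = 0.0250), the stress-responsive nuclear RNA, and pncr009:3L (-0.74, adjusted p = 0.0161). On average, 1 was higher and 2 were lower (4.38% and 4.41% of all genes), and in CantonS 2 were lower at 25C (5.35% of all genes), Hsromega (-0.97, adjusted p = 0.0429) and pncr009:3L (-0.83, adjusted p = 0.0375). None was called in Bully between temperatures, on average over the lines or in the interaction. Among CR genes tested below 3 RPKM, which number 47, 5 were called between the lines at 25C (10.6%, against 3.03% of all tested genes), 8 at 19C (17.02% against 11.5%), 11 on average (23.4% against 8.79%) and 3 between temperatures in CantonS (6.38% against 6.42%). A mean of 1 RPKM can be reached through the higher groups only, and such genes have to differ between groups. How many of the 47 did so, or kept a constant ratio to a partner, is not given. Their shares are therefore not read as an excess of line differences.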

How the data were processed

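The authors deposited RPKM per gene for 8 libraries. TopHat2 2.0.4 and edgeR 3.8.6 were used with dm3 and BDGP5, per the submitters' processing notes. The authors' lengths, filters and counting mode are not given in the sources used here. The columns name the group but no replicate number.

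The CR genes and all lists were chosen with earlier results of these data known. One model with 4 group means was fitted to log2(RPKM + 0.5) of 8480 genes averaging 1 RPKM or more, using limma 3.58.1 in R 4.3.3 (eBayes with trend, two-sided, Benjamini-Hochberg within a comparison, threshold 0.05). Residual degrees of freedom were 4 and the prior added 4.47. The pseudocount of 0.5 understates changes of low genes. The p-values rest on the spread between the 2 libraries of a group, pooled over all 4 groups and moderated by the prior. The wider spread of the CantonS 19C libraries therefore also enters comparisons that leave this group out. The script was tested on simulated data, with 200 genes changed 2-fold on the scale of log2(RPKM + 0.5) in each comparison tried. It recovered 80.5% of them for the lines at 25C, 72% at 19C, 74.5% for temperature in CantonS and 70% in Bully. For the interaction it recovered 41.5%, so a missing call there does not show a lack of change. Between 2 and 8 unchanged genes were called in a comparison. The simulation gave each gene the same spread in all groups. In the data, replicates differed by a median absolute log2 of 0.23 in CantonS 19C and 0.08 in Bully 19C over all tested genes. The recovered shares therefore need not hold for these libraries.

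Library sizes came from RPKM steps, since 1 read in a 1 kb gene was worth 0.00849 to 0.0210 RPKM. Whole reads were accepted within 0.001 of a read where the implied length lay within 10% of the annotated one. Counting limits cover counting error only. Overlaps come from the BDGP6 annotation, with older symbols matched. No coordinates were carried between builds and no sequences are printed.

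Genes named are up to 8 rises and 8 falls among those called in each comparison (or the 3 smallest p), the 10 highest levels, constant ratios, genes at the 3 RPKM limit, and the nearest or overlapping genes. Nearest genes were sought among those averaging 1 RPKM or more. Examples of replicate spread and near-constant ratios were chosen after their values were seen. Alternatives were other pseudocounts, filters, scalings, priors and fits, removal of a length trend, an adjusted p below 0.1, ratio limits of 2% and 10%, and leaving out each library.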

Additional observations from a re-analysis of the deposited data

How the results depend on the processing

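No paired analysis was possible because the library columns carry no replicate number. Leaving out each library in turn gave 1 to 11 called CR genes for the lines at 25C (6 with all libraries), 2 to 17 at 19C (12), 7 to 15 on average (11), 0 to 25 for temperature in CantonS (7), 0 in Bully, 0 to 7 averaged over lines (0) and 0 to 12 for the interaction (0). Where a group then had 1 library, it was assumed to vary like the others. The shares of all genes called are given for the main setting only. Counts under any other setting, here and above, are therefore not read as particular to CR genes. Without the constant-ratio genes the counts were 3 at 25C, 7 on average and 3 for CantonS temperature. Counting only the 5 genes without an overlapping gene, an alternative chosen after seeing the data, gave 2, 1, 1 and 0 in the line comparisons at 25C, 19C and on average and in CantonS temperature. At 19C the count was 7 with no filter on low values and 7 when just the 19C groups were fitted. CantonS temperature gave 12 with a filter of 3 RPKM, 18 at an adjusted p below 0.1, 1 with quantile normalization, and 0 with no filter, with only the groups compared, with median-of-ratios rescaling and with the length trend removed (98.2% of genes had a length). That rescaling moved the median of all genes by 0.11 in CantonS temperature and by -0.13 in the interaction, where an adjusted p below 0.1 called 5. Constant ratios numbered 27 at a limit of 10%, with rows that do not overlap included, and 9 at 2%. CR44107 at 19C reversed to 0.029 with the length trend removed. The cause of these changes was not tested. Calls that held without each single library belonged to CR31781, CR44045, CR44168, CR44179, CR43469 and CR43477. Among these genes, CR44168, CR43469 and CR43477 had a group mean below 3 RPKM, so they had to differ between groups. CR44179, CR43469 and CR43477 kept a constant ratio and cannot be told apart from their partners. Of 36 calls of a CR gene in a comparison, 9 held without every single library in turn and 8 under all alternatives run.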
